A study of Mus musculus with 4 samples.

Results

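The comparison set wild-type against miR-155-deficient tumour infiltrates at day 9, each represented by 1 droplet single-cell library. Its members were all barcodes of the day 9 libraries with at least 200 detected genes and at most 10% of their transcripts from mitochondrial genes. They numbered 5515 of the 11224 cells in the series, 1777 from wild-type mice and 3738 from knockout mice, and the other 5709 cells came from the libraries of day 12. Tumours were grown from 1000000 B16F10-OVA cells, a mouse melanoma line carrying the ovalbumin antigen, injected under the skin. Hosts were C57BL/6 mice, either wild-type or with a conditional knockout of miR-155 restricted to T cells, named miR-155 TCKO; the labels give the same strain for both and do not name the Cre driver or the deleted bases. Tumours of more than 4 mice per group were pooled, dissociated with Accumax, and sorted for living CD45+ leukocytes, and equal numbers of sorted cells entered the droplet reaction. The wild-type and knockout libraries therefore each hold a pool of animals, no spread between mice can be computed, and the differences have no replicate check. Intervals below are exact 95% intervals that cover counting error alone.

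miR-155 is a short regulatory RNA that lymphocytes and myeloid cells induce on activation; it pairs through its seed with the 3′ UTR of target messengers and lowers their level or translation. In CD8 T cells it is known to favour effector expansion and to act against inhibitors of cytokine signalling such as Socs1. CD8 T cells in a tumour release interferon-γ, to which monocytes, macrophages and dendritic cells respond with antigen presentation genes, guanylate-binding proteins and chemokines, while type I interferons induce an overlapping set of antiviral genes.

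The sequence deleted in T cells by label, mature miR-155-5p (RefSeq, GRCm38.p6, chr16:84714143-84714165, plus strand, within the Mir155hg gene), is 23 bases long and is shown with its seed, bases 2 to 8, in capitals. The heptamer AGCATTA, complementary to that seed, occurred in the longest annotated 3′ UTR of 1742 of 21020 genes (8.29%) and of 16 of the 24 genes on a list of reported miR-155 targets. Sites of 4 of these genes are shown because their levels in CD8 T cells are described further on. Each is a 23-base stretch of the messenger strand from GRCm38 with the AGCATTA match in capitals.
mmu-miR-155-5p: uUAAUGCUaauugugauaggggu
Socs1: ctgccgctgtgccgcAGCATTAa
Ikbke: attggccaacaaactAGCATTAc
Ifngr1: catacttttttatggAGCATTAc
Ets1: cactctgggttttaaAGCATTAa

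The deposited matrices held 21448114 transcripts (unique molecular identifiers, UMIs) for the wild-type and 33902064 for the knockout library, with a median per cell of 9658 and 7756 UMIs and of 2476 and 2222 genes. The filter removed 1 and 11 barcodes, and 10 barcode sequences occurred in both libraries (0.562% of wild-type and 0.267% of knockout cells). The mitochondrial share was 1.69% in both. Levels are given in CPM, the UMIs of a gene per 1000000 UMIs summed over the gated cells of a library. Transcripts of other cell types were not spread equally: the summed level of melanoma genes was 3.40 CPM in the wild-type and 146 CPM in the knockout library, and that of red-cell genes 0.420 and 354 CPM.

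Mir155hg, the host transcript of miR-155 (GRCm38 chr16:84703167-84715245, plus strand), was read only as a check of the labels. In all T cells it had 87 UMIs in 77 of 868 wild-type cells, a level of 7.98 CPM (6.40 to 9.85), and 0 UMIs in 776 knockout cells, which allows a level of up to 0.734 CPM. In NK cells, which are not T cells, the level was 4.10 CPM in the wild-type and 3.11 CPM in the knockout library, with upper bounds of 8.91 and 7.97 CPM. Mature dendritic cells had 0 UMIs in 32 wild-type cells, which allows up to 10.4 CPM, and 15 UMIs in 12 of 60 knockout cells, 24.9 CPM (13.9 to 41.1). The transcript was thus not detected in the knockout T cells at this depth and was detected in other knockout leukocytes.

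CD8 T cells were the most frequent lineage of the wild-type infiltrate and monocytes and macrophages the most frequent of the knockout infiltrate. Lineages were gated on UMIs of defining markers, such as Cd3d, Cd3e and Cd3g for T cells or Csf1r, Adgre1 and Fcgr1 for monocytes and macrophages. CD8 T cells made up 39.7% (37.4 to 42.0) of the 1777 wild-type cells and 9.90% (8.96 to 10.9) of the 3738 knockout cells, a knockout over wild-type ratio of 0.249 (0.219 to 0.283). Monocytes and macrophages rose from 14.4% (12.8 to 16.1) to 47.8% (46.2 to 49.4), a ratio of 3.33 (2.92 to 3.81). There were thus 2.77 CD8 T cells for each monocyte or macrophage in the wild-type tumours and 0.207 in the knockout tumours; at day 12 the corresponding quotients were 0.139 and 0.0655.

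**Figure D1:**
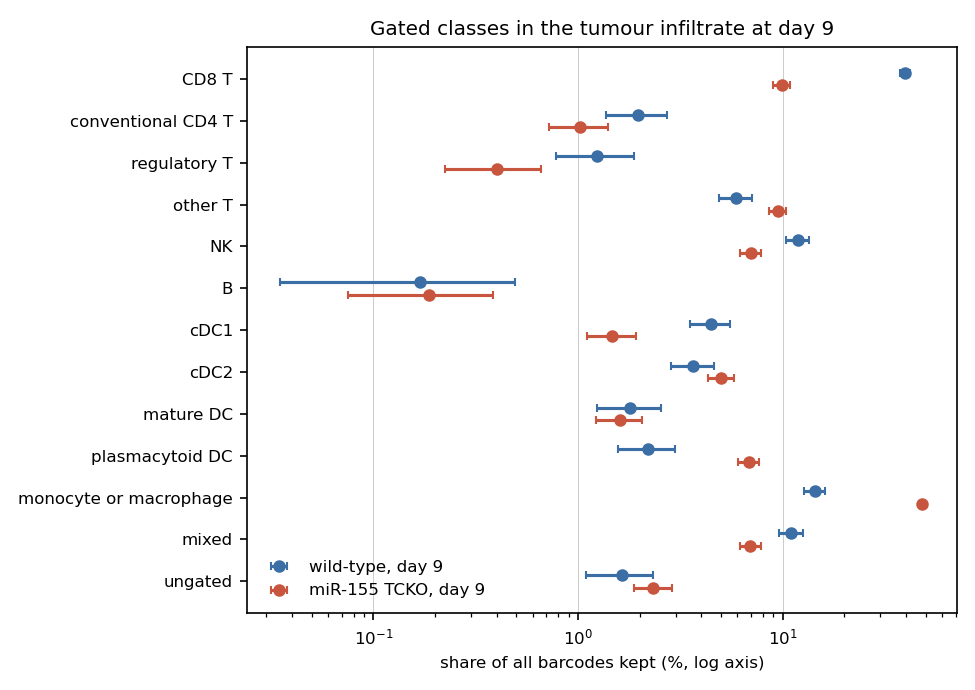
Share of all kept cells in each gated lineage at day 9 (log axis, percent; other T has no CD8 or CD4 call, and mixed and ungated barcodes are shown last), wild-type and knockout libraries, with exact 95% binomial intervals as bars. CD8 T cells are at 39.7% against 9.90%, and monocytes and macrophages at 14.4% against 47.8%.

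Among the remaining lineages the shares moved in both directions. NK cells, innate killers of the lymphoid lineage, were 11.8% of wild-type and 6.98% of knockout cells, a ratio of 0.591 (0.491 to 0.712). cDC1, the dendritic cells that cross-present tumour antigen to CD8 T cells, were 4.45% and 1.47%, a ratio of 0.331 (0.230 to 0.473). Plasmacytoid dendritic cells (pDC), known as producers of type I interferon, were 2.19% and 6.82%, a ratio of 3.11 (2.21 to 4.47). Regulatory T cells were 1.24% and 0.401%, a ratio of 0.324 (0.156 to 0.654), so that the number of CD8 T cells per regulatory T cell, 32.1 (21.0 to 51.5) for the wild-type pool and 24.7 (14.8 to 44.5) for the knockout pool, had overlapping intervals. Conventional CD4 T cells were 1.97% and 1.02%, a ratio of 0.516 (0.317 to 0.841). Mature dendritic cells, at 1.80% and 1.61%, had an interval of the ratio that includes 1 (0.571 to 1.42). The share of cDC2, the dendritic cells that present mainly to CD4 T cells, was 3.66% of wild-type cells (65 cells), and 187 of the 3738 knockout cells were cDC2, a ratio of 1.37 (1.03 to 1.84). B cells numbered 3 and 7 and were not compared.

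Shares of a whole sum to a fixed total, so the shares were also taken among the cells outside the T lineage and, for CD4 T cells, among T cells. Outside the T lineage NK cells were 29.5% and 9.66% (ratio 0.328), cDC1 11.1% and 2.04% (0.184), pDC 5.47% and 9.44% (1.73), and monocytes and macrophages 35.8% and 66.1% (1.85). The ratio of cDC2 was 0.759 (0.570 to 1.02) among non-T cells, against 1.37 among all cells, so its direction depended on the denominator. Among T cells alone the ratio was 0.763 (0.368 to 1.54) for regulatory and 1.21 (0.747 to 1.98) for conventional CD4 T cells, so both intervals include 1 on that basis. There were 1.22 cDC1 for each cDC2 in wild-type and 0.294 in knockout. At day 12, in the other libraries of the series, the knockout over wild-type ratio of the share was 0.445 (0.329 to 0.594) for CD8 T cells. It was 1.05 (0.904 to 1.21) for NK cells, 0.975 (0.750 to 1.26) for cDC1 and 1.60 (0.870 to 2.91) for pDC. For monocytes and macrophages it was 0.946 (0.871 to 1.03). Apart from that of CD8 T cells, these intervals include 1.

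Cells of the T lineage with neither a CD8 nor a CD4 call were 5.91% of wild-type and 9.44% of knockout cells, a ratio of 1.60 (1.28 to 2.01). This class depends on depth, since a T cell with few UMIs can miss Cd8a and Cd4. When every cell was thinned to 2000 UMIs, the class took 13.5% of the wild-type and 11.8% of the knockout library, a ratio of 0.876. The thinned ratios of the CD8 T cells, 0.188, and of the monocytes and macrophages, 3.20, lay on the same side of 1 as the unthinned values. Barcodes with markers of both a lymphoid and a myeloid lineage, which include doublets, were set aside; they were 196 wild-type and 260 knockout cells with a median of 17707 and 13945 UMIs. Of these, 65 wild-type cells (3.66% of the library) and 12 knockout cells (0.321%) combined T cell with cDC1 markers, so that the share of cDC1 in wild-type depends on how such barcodes are counted.

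The CD8 T cells of the wild-type tumours were mostly cycling or PD-1 positive, and those of the knockout tumours mostly naive-like. States were gated in order: cycling cells by 3 or more UMIs of Mki67, Top2a, Birc5, Cdk1 and Ccna2, then PD-1 positive cells by a Pdcd1 UMI, then naive-like cells by 2 or more UMIs of a list of naive-cell genes that includes Ccr7, Lef1, Tcf7, Igfbp4 and Dapl1. Cycling cells were 282 of 706 wild-type CD8 T cells (39.9%; 36.3 to 43.7) and 12 of 370 knockout cells (3.24%). PD-1 positive cells outside cycle were 43.6% and 10.5%. Naive-like cells were 12.3% and 76.5%. The median depth was 11858 UMIs in wild-type and 4916 UMIs in knockout CD8 T cells, and a gate on UMIs finds more positive cells at greater depth. After thinning to 2000 UMIs the cycling share was 16.6% and 2.97%, the PD-1 positive share 41.6% and 9.75%, and the naive-like share 8.22% and 53.4%.

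**Figure D2:**
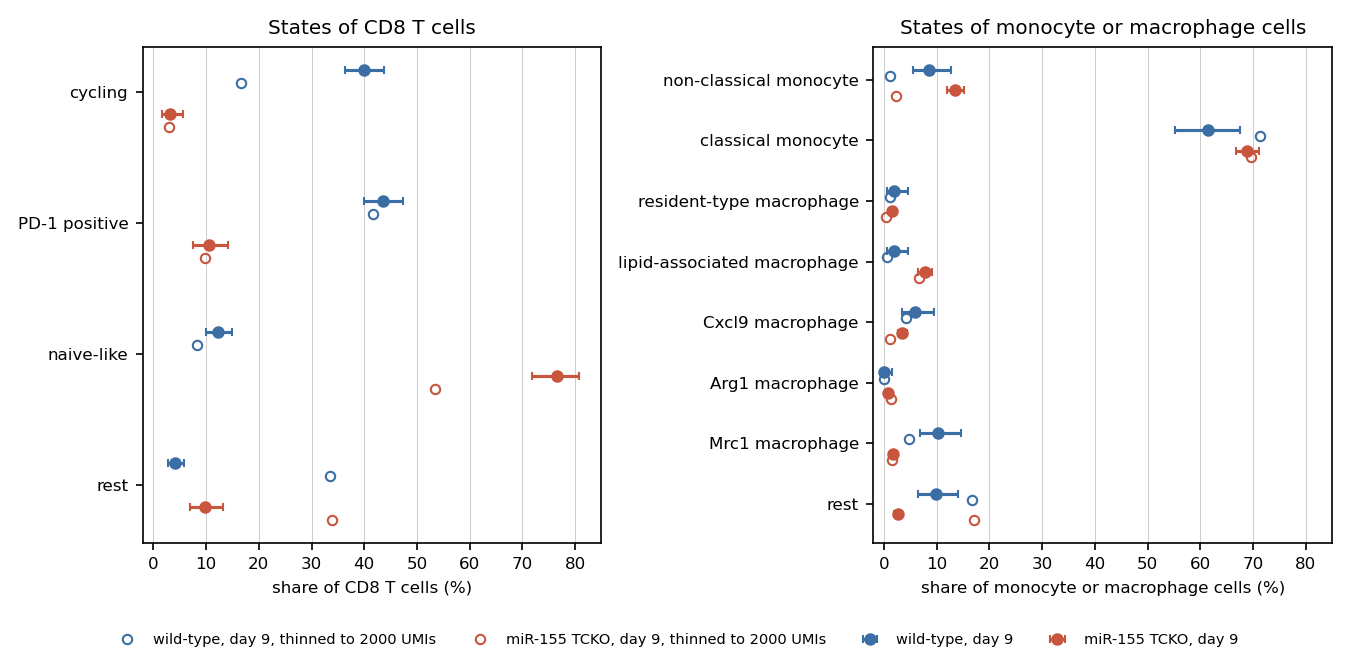
Share of cells in each gated state, as percent of the CD8 T cells and of the monocytes and macrophages of each day 9 library (filled points, exact 95% binomial intervals) and after thinning to 2000 UMIs (open points). Naive-like cells are 12.3% of wild-type and 76.5% of knockout CD8 T cells, and lipid-associated macrophages 1.96% and 7.72% of their lineage.

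In CD8 T cells the knockout had lower levels of cytotoxic, inhibitory-receptor and cell-cycle genes and higher levels of genes of naive and memory cells. A gene was counted as called when both libraries together gave 50 UMIs or more and its CPM differed by at least 2-fold; of 8522 such genes, 974 (11.4%) were called lower in the knockout and 394 (4.62%) higher, and the median log2 ratio of knockout over wild-type of all of them was -0.17. Against that background, 24 of 26 cell-cycle genes, 19 of 31 cytotoxic effector genes and 10 of 17 inhibitory-receptor genes were called lower, and 16 of 19 naive or memory genes were called higher. The median log2 ratio was -2.36 for the cell-cycle list, -1.40 for the cytotoxic list, -1.62 for the inhibitory list and 2.90 for the naive and memory list. The cells compared are a mixture of the states above, and some genes of these lists also define those states. In a sum over cells, fewer cells of a state and less RNA per cell cannot be told apart.

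Granzymes and perforin, the proteins with which killer cells lyse their targets, were among the genes that fell. Gzmb fell from 2164 to 233 CPM, a ratio of 0.108 (0.0987 to 0.118). It was detected in 83.0% of wild-type and 16.2% of knockout CD8 T cells; in monocytes and macrophages, which are not known for it, 20.4% and 1.96% of cells had a Gzmb UMI, at 22.5 and 2.50 CPM. Gzmk, a granzyme of earlier effector and memory cells, fell from 145 to 13.8 CPM, a ratio of 0.0954 (0.0646 to 0.136). Gzmf had 457 UMIs in the wild-type cells (45.7 CPM) and 0 in the knockout cells, at least 34.2-fold lower against a floor of 3 UMIs in the library. Gzma was 270 and 84.6 CPM, and Prf1, the pore-forming protein, 62.3 and 15.1 CPM. Ctsw, a cysteine protease of cytotoxic cells, was 406 and 409 CPM, so not all members of the list were lower.

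Other genes that were lower in the knockout CD8 T cells are given singly, without a list behind them. Id2, which supports effector cells, was 913 CPM in wild-type and 215 CPM in knockout. Prdm1, the gene of the effector regulator Blimp-1, had a ratio of 0.101, with 2.23 CPM in knockout. Klrg1 had 199 and 3 UMIs, a ratio of 0.0671 (0.0137 to 0.199). Cx3cr1, a chemokine receptor of late effectors, was 24.1 and 1.78 CPM. Lgals1 and S100a6, which activated T cells express strongly, fell from 5014 to 900 CPM and from 2671 to 484 CPM. Mt1, a metal-binding metallothionein, fell from 325 to 34.7 CPM, and Mt2 from 156 to 18.3 CPM; without the richest cells their ratios, 0.107 and 0.117, were 0.0589 and 0.0457.

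Genes of DNA replication and of mitosis fell together. Mki67, a marker of dividing cells, was 98.4 CPM in wild-type and 8.91 CPM in knockout, a ratio of 0.0905 (0.0551 to 0.141) that was 0.0602 without the richest cells. The replication-dependent histone Hist1h2ap was 787 and 52.6 CPM, and Hist1h2ae 57.3 and 2.23 CPM. Cdkn3, a phosphatase of the cell cycle, was 48.3 and 4.01 CPM. The 2 genes of the list that were not called were Mcm2, a replication licensing factor with 71.6 and 41.0 CPM, and Tubb5, a tubulin with 875 and 448 CPM.

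Of the 17 genes of inhibitory receptors and the exhaustion programme, 10 fell and 4 rose. Pdcd1, the gene of PD-1, was 424 CPM in wild-type and 114 CPM in knockout, Lag3 430 and 91.3 CPM, Havcr2 93.3 and 12.9 CPM (ratio 0.138, or 0.0918 without the richest cells), and Tox, a regulator of exhausted cells, 159 and 35.2 CPM. Entpd1, the ectonucleotidase CD39, was 38.2 and 3.56 CPM. The 4 genes called higher were Btla (4.30 to 13.8 CPM), Nr4a1 (16.8 to 49.0 CPM), Nr4a3 (5.61 to 14.7 CPM) and Ikzf2 (57.1 to 130 CPM); Nr4a1 and Nr4a3 are induced early after antigen receptor signals. Of 16 dissociation and stress genes 5 were called higher and 1 lower, with a median log2 ratio of 0.13; among those called higher, the AP-1 genes Jun and Junb were 30.6 and 140 CPM and 239 and 589 CPM. This list summed to 5766 CPM over the whole wild-type and 7309 CPM over the whole knockout library, and its part in the other values was not tested.

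Genes of resting, recirculating T cells rose. Lef1, a factor of naive T cells, had a ratio of 5.72. Igfbp4 rose from 1.20 to 59.2 CPM, a ratio of 49.3 (27.3 to 97.9). Only 12 wild-type Igfbp4 UMIs were counted, 8 of them in 1 cell, so its ratio of 135 without the richest cells rests on few UMIs. Klf3 rose from 6.21 to 69.5 CPM, and its relative Klf2, which keeps T cells quiescent and able to leave tissues, from 80.1 to 596 CPM. Il7r, the receptor of a survival cytokine, was 23.1 and 178 CPM, Tcf7, a factor of stem-like cells, 27.2 and 212 CPM, and S1pr1, the exit receptor, 9.41 and 73.5 CPM. Tdrp (1.20 to 28.5 CPM), Tnfsf8 (to 49.4 CPM, a ratio of 16.5), Nsg2 and Sh3bp5 were also among the 10 highest by the naming rule. The 3 list members that were not called were Ltb, Cxcr3 and Cd27, with ratios of 1.56, 1.44 and 1.05.

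Several secreted factors of CD8 T cells came from few knockout cells. Ifng was 313 CPM in wild-type and 447 CPM in knockout, but 615 of the 1004 knockout UMIs came from 1 cell, and without the richest cell of each library the ratio was 0.583. An Ifng UMI was found in 70.8% of wild-type and 10.8% of knockout CD8 T cells. Xcl1, the chemokine that attracts cDC1, was 232 and 1456 CPM, a ratio of 6.27 that became 3.64 without the richest cells, 1 of which held 1626 of 3268 knockout UMIs. Ccl1 was 88.6 and 465 CPM, with 567 of 1044 knockout UMIs in 1 cell and a ratio of 5.25 that became 3.03. Ccl5, an attractant of T cells and monocytes, was spread over more cells and fell from 6724 to 2744 CPM, a ratio of 0.408 (0.397 to 0.419). Ccl3 was 1301 and 743 CPM and Ccl4 1760 and 1149 CPM, both short of 2-fold; their ratios of 0.571 and 0.653 became 0.349 and 0.371 without the richest cells, past 2-fold.

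Interferon-response genes took different directions within CD8 T cells. Of 24 tested genes of the interferon-γ list, 9 were called higher and 0 lower, with a median log2 ratio of 0.57. They included Gbp2 (47.3 to 174 CPM), Iigp1 (11.7 to 43.7 CPM), Irf1 (69.9 to 162 CPM) and Igtp (101 to 212 CPM), while the immunoproteasome subunit Psmb9 was 489 and 294 CPM. Of 20 type I interferon genes, 3 were called higher and 1 lower; Oasl2 was 2.70 and 17.4 CPM, Isg15 109 and 115 CPM, and Ifi27l2a 1253 and 498 CPM. Glycolysis and hypoxia genes were called lower in 9 of 22 cases, among them Gapdh (3645 to 1535 CPM) and Pgk1 (159 to 31.2 CPM). Other scalings moved the median of all CD8 T cell log2 ratios by 0.0994 (TMM) and 0.173 (median of ratios), which is more than 0.1 only for the latter.

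Macrophage transcripts were more abundant in the knockout CD8 T cells. The summed level of 6 macrophage markers, none of them at 0 in either library, was 55.8 CPM in wild-type and 265 CPM in knockout CD8 T cells. Lyz2, the macrophage lysozyme, was found in 44.5% of wild-type and 64.9% of knockout CD8 T cells, and Apoe was 3.10 and 37.4 CPM, a ratio of 12.1 that was 7.06 without the richest cells. MHC class II genes, which mouse T cells are not known to transcribe at high level, were called higher in 7 of 9 cases; Cd74 was 75.3 and 314 CPM, and its ratio of 4.18 became 2.35 without the richest cells. Wfdc17, a myeloid gene that was among the 10 highest, had 39 of its 72 knockout UMIs in 1 cell, and its ratio of 14.6 became 7.34. Whether RNA from myeloid cells bears on the CD8 T cell levels of other genes was not tested.

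Reported targets of miR-155 had a median log2 ratio of 0.27 in CD8 T cells, with 4 of 21 called higher and 1 lower. The target called lower was Cebpb, which has an AGCATTA site, with 10.7 and 5.35 CPM (ratio 0.499, upper bound 0.908). Tab2, also with a site, was not called at 34.4 and 25.8 CPM, but the interval of its ratio lay below 1 (0.558 to 0.993). Socs1, which blocks cytokine receptor signalling and whose site is printed above, rose from 34.4 to 125 CPM, a ratio of 3.62. Ikbke, a kinase of innate signalling with an AGCATTA site, was 8.71 and 30.3 CPM, a ratio of 3.48 (2.49 to 4.83). Ifngr1, the ligand-binding chain of the interferon-γ receptor, was 323 and 571 CPM, a ratio of 1.77 (1.66 to 1.89). Ets1, a lymphoid transcription factor with the same heptamer, was 192 and 191 CPM, a ratio of 0.995 (0.894 to 1.11). Spi1, a factor of myeloid cells with 3.90 and 17.4 CPM (ratio 4.45, or 2.84 without the richest cells), and Il6st, with 5.30 and 17.8 CPM and no AGCATTA match, were the other genes called higher. Socs3, a related inhibitor outside that list, was among the 10 highest genes, with 14.1 and 155 CPM, a ratio of 11.0 (9.03 to 13.5).

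The comparison within naive-like cells sets 87 wild-type against 283 knockout cells of 1 gated state. Of 3613 genes tested there, 31 (0.858%) were called higher and 68 (1.88%) lower, and the median log2 ratio of all was -0.09. Cytotoxic genes were called lower in 10 of 18 cases, while only 1 of 14 naive or memory genes was called higher. Ccl5 fell from 5148 to 2298 CPM, a ratio of 0.446 (0.425 to 0.469). S100a4 was 400 and 78.9 CPM, S100a6 909 and 225 CPM, Lgals1 1025 and 304 CPM, and Id2 386 and 134 CPM. Gzma was 732 and 108 CPM, of which 187 of 406 wild-type UMIs stood in 1 cell; without the richest cells it was 406 and 85.5 CPM. Among the reported targets 0 of 11 were called in either direction, and Socs1 was 108 and 140 CPM, a ratio of 1.30 (0.969 to 1.76), while Ifngr1 was 604 and 663 CPM. Socs1 thus passed 2-fold over all CD8 T cells and not within the naive-like state; the difference between these ratios was not tested.

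The PD-1 positive state held 308 wild-type and 39 knockout cells, looked at after the values of all CD8 T cells had been seen. Gzmb was detected in 86.4% of the wild-type and 25.6% of the knockout cells, at 1903 and 365 CPM; 86 of the 123 knockout UMIs came from 1 cell, and without the richest cell of each library the levels were 1848 and 121 CPM. Lag3 was detected in 92.9% and 53.8%, Havcr2 in 47.4% and 15.4%, Tox in 76.6% and 38.5%, and Gzmk in 57.8% and 10.3%. Nr4a1, the early response gene, was detected in 7.47% and 33.3% of cells, at 13.2 and 160 CPM. Tnf was detected in 11.0% and 23.1% and Xcl1 in 20.8% and 43.6% of these cells, so detection of some effector genes was higher in the knockout cells; the genes given here are not a list. Ifng was detected in 76.0% and 33.3% of these cells, although its level was 407 and 2320 CPM, or 514 CPM in knockout without the richest cell. The median depth of these cells was 9819 UMIs in wild-type and 7463 in knockout.

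T cells with neither a CD8 nor a CD4 call showed few differences. Of 4032 genes tested, 87 (2.16%) were called higher and 35 (0.868%) lower, and their median log2 ratio was 0.06. The type I interferon list had 5 of 11 genes called lower, with Isg15 at 257 and 96.3 CPM, Ifit1 at 154 and 56.8 CPM. The cytotoxic list had 5 of 21 called lower; Gzma was 341 and 84.8 CPM. Ccl3 was 86.3 and 10.2 CPM, but 41 of 46 wild-type UMIs were in 1 cell and without the richest cells the ratio was 0.816. Sp3, a general transcription factor, was 5.63 and 35.7 CPM, and the macrophage gene Apoe was 7.50 and 52.9 CPM (ratio 7.06, or 4.31 without the richest cells). The 6 macrophage markers summed to 212 and 498 CPM in these cells, with C1qc and Ms4a7 at 0 in wild-type and Ms4a7 at 0 in knockout, and their part in the genes called higher was not tested.

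NK cells, which are not T cells and kept Mir155hg, had lower type I interferon genes in the knockout tumours and higher chemokine genes, while 1 of 21 cell-cycle genes was called lower and 0 higher. Of 4986 genes tested, 38 (0.762%) were called higher and 89 (1.78%) lower, with a median log2 ratio of 0.03. The cell-cycle list had a median log2 ratio of -0.15. The replication-dependent histone Hist1h2ap fell from 229 to 52.1 CPM, a ratio of 0.228 (0.173 to 0.297) that was 0.196 without the richest cells. The type I interferon list had 8 of 12 genes called lower with a median log2 ratio of -1.21: Ifi27l2a was 262 and 45.1 CPM, Isg15 199 and 64.6 CPM, and Irf7, the factor that amplifies this response, 115 and 49.8 CPM. The interferon-γ list had 0 of 19 called in either direction. The 6 macrophage markers summed to 193 and 289 CPM in NK cells, with Ms4a7 at 0 in wild-type. S100a6 was 2543 and 790 CPM, Ly6a, an interferon-inducible surface protein, 433 and 85.6 CPM, and Klrg1, a receptor of mature NK cells, 185 and 75.5 CPM. Glycolysis and hypoxia genes were called lower in 6 of 19 cases, with Pgk1 at 88.7 and 22.6 CPM and Eno1 at 761 and 372 CPM. NK receptors stayed within 2-fold in 20 of 21 cases, as did Gzma (7259 and 4767 CPM) and Gzmb (1601 and 996 CPM).

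Chemokines were called higher in 5 of 7 cases in NK cells, partly through single cells. Xcl1, made by NK cells to attract cDC1, rose from 848 to 1890 CPM, a ratio of 2.23 (2.08 to 2.39) that was 2.11 without the richest cells; it was detected in 67.1% of wild-type and 74.3% of knockout NK cells and in 2.35% and 3.64% of monocytes and macrophages. Ccl4 was 175 and 927 CPM, with 526 of 1192 knockout UMIs in 1 cell and a ratio of 3.80 without the richest cells. Ccl3 was 84.6 and 458 CPM, and its ratio of 5.41 became 2.34. A Ccl4 UMI was found in 35.2% of wild-type and 26.4% of knockout NK cells, so the higher sum did not come with more positive cells. Spp1, osteopontin, was 962 and 219 CPM in NK cells, with 522 of 1409 wild-type and 134 of 282 knockout UMIs in 1 cell each. Its ratio of 0.228 was 0.190 without the richest cells. Gzmg was 301 and 13.2 CPM with 431 of 441 wild-type UMIs in 1 cell.

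The cDC1 of the knockout tumours had cell-cycle and type I interferon genes called lower, and the gate also held cells with macrophage transcripts. Of 3871 genes tested in 79 wild-type and 55 knockout cells, 133 (3.44%) were called higher and 159 (4.11%) lower, with a median log2 ratio of 0.02. The cell-cycle list had 7 of 18 genes called lower, with Top2a at 122 and 39.3 CPM, and Hist1h2ap was 441 and 40.5 CPM. Irf7 was 438 and 130 CPM and Isg15 453 and 163 CPM, in a type I list with 5 of 12 called lower. Of 21 interferon-γ genes 3 were called higher and 2 lower. Of 18 genes of dendritic cell function 3 were called higher and 1 lower. Irf8, a transcription factor that cDC1 need, was 2706 and 1770 CPM, and the MHC class II gene H2-Aa 11706 and 11606 CPM. Wdfy1, an endosomal adaptor, had 75 and 2 UMIs, a ratio of 0.0354 (0.00421 to 0.132), and Serpinb6b 84 and 3 UMIs, a ratio of 0.0474 (0.00959 to 0.143), while Tppp3 was 201 and 33.4 CPM. Lpl, the lipoprotein lipase, was 8.97 and 392 CPM. However, 5 wild-type cells (6.33%) and 17 knockout cells (30.9%) of the gate carried at least 3 monocyte or macrophage UMIs. Without those cells the Lpl log2 ratio was -1.75. Lpl had only 10 wild-type UMIs, in 3 cells of the whole gate, so that value rests on few UMIs and has no interval. The 6 macrophage markers, none at 0, summed to 894 and 5687 CPM.

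In cDC2 chemokine and inflammatory genes were among those called higher. Of 4868 genes tested, 194 (3.99%) were called higher and 99 (2.03%) lower, with a median log2 ratio of 0.06. Of the chemokine list 8 of 13, and of the inflammatory list 4 of 8, were called higher. Il1b, the inflammasome cytokine, rose from 31.5 to 459 CPM, a ratio of 14.6 (9.57 to 23.4), and was detected in 10.8% of wild-type and 45.5% of knockout cells. Ccl17, a chemokine for CCR4-bearing T cells, was 8.59 and 365 CPM, a ratio of 42.5, in 4.62% and 16.0% of cells. Only 6 wild-type Ccl17 UMIs were counted, 4 of them in 1 cell, so its ratio of 104 without the richest cells rests on few UMIs. Cxcl9 and Cxcl10, which attract CXCR3-bearing T cells, were 218 and 452 CPM and 243 and 771 CPM, and the Cxcl10 ratio of 3.17 was 4.92 without the richest cells. H2-Q7, a non-classical MHC class I gene, fell from 288 to 73.5 CPM, and Ifit2 from 94.5 to 24.8 CPM in a type I list with 8 of 19 called lower. Cells with at least 3 monocyte or macrophage UMIs were 32.3% of wild-type and 52.4% of knockout cDC2; without them the chemokine median was 1.01 on the log2 scale against 1.66 with them. The macrophage markers summed to 3288 and 7151 CPM. Hspb1 and Cxcl3 came almost wholly from 1 cell, which held 481 of 482 and 121 of 122 UMIs.

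Monocytes and macrophages, the largest compartment of the knockout tumours, had lower interferon-response genes than their wild-type counterparts. Of 9070 genes tested in 255 wild-type and 1787 knockout cells, 416 (4.59%) were called higher and 286 (3.15%) lower, with a median log2 ratio of 0.04. Of 23 type I interferon genes, 21 were called lower and 0 higher, with a median log2 ratio of -1.45. Isg15, a ubiquitin-like modifier, fell from 1457 to 409 CPM, a ratio of 0.281 (0.270 to 0.292). Irf7 fell from 769 to 234 CPM, Ifit3 from 269 to 76.4 CPM and Rsad2, the antiviral enzyme viperin, from 197 to 68.9 CPM. Ifi44 was 15.8 and 1.39 CPM and Ifit3b 43.0 and 5.66 CPM. The 2 members that were not called were Ifi204 (666 and 464 CPM) and Ifi35 (ratio 0.607).

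**Figure D3:**
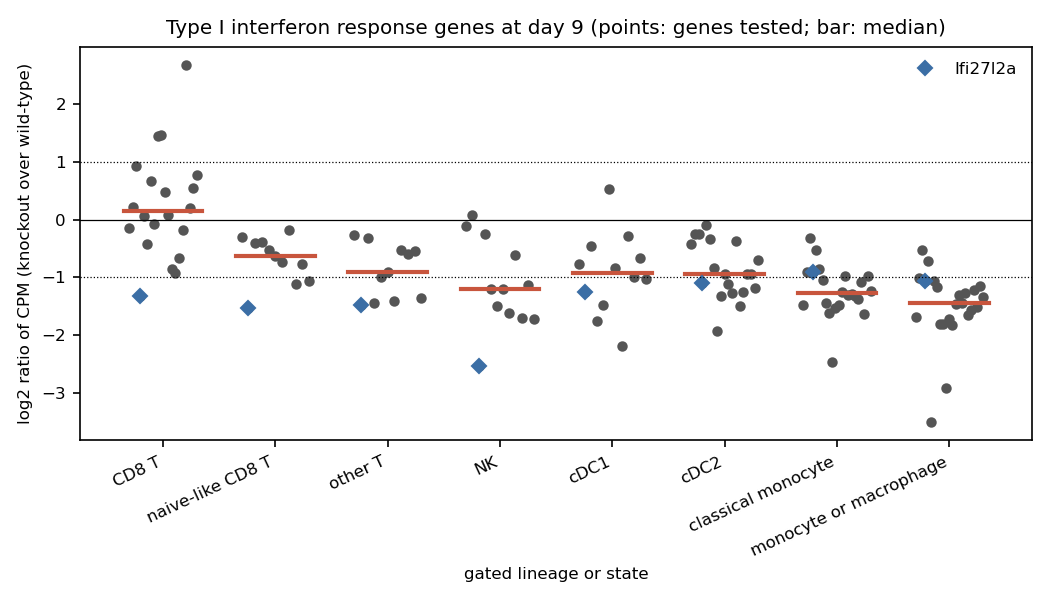
Log2 ratio of knockout over wild-type CPM for the tested genes of the type I interferon list (points), with their median (red bars), in 6 lineages and in naive-like CD8 T cells and classical monocytes; dotted lines mark 2-fold and diamonds Ifi27l2a. In monocytes and macrophages 21 of 23 type I genes lie at or below -1, while CD8 T cells have a type I median of 0.15.

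The interferon-γ list held fewer called genes in these cells, with 10 of 29 genes called lower, 0 higher and a median log2 ratio of -0.86. Gbp2b, a guanylate-binding protein (GRCm38 chr3:142594847-142619179), fell from 117 to 5.83 CPM, with a ratio between 0.0396 and 0.0626, and was found in 33.7% of wild-type and 2.41% of knockout cells. Over all cells of a library Gbp2b was 18.1 and 3.78 CPM at day 9 and 73.6 and 3.80 CPM at day 12; whether a difference in strain background between the pools contributes to the Gbp2b and H2-Q values was not tested, although the labels give both as C57BL/6. Iigp1 was 147 and 42.2 CPM, and Psmb9 571 and 274 CPM. Other interferon-γ targets did not follow: Cxcl9 was 432 and 608 CPM, a ratio of 1.41, Gbp2 966 and 901 CPM, and Cxcl10 1038 and 892 CPM. In 3 promoters of genes that fell and in that of Irf1, which had a ratio of 0.601, the letters of interferon-regulated elements are shown. The interferon-stimulated response element was searched as 2 copies of GAAA with 2 bases of any kind between them and the gamma-activated site as TTCNNNGAA, on both strands, in the 250 bases before each start; such letters occurred in 936 (3.46%) and 2197 (8.13%) of 27025 genes. Among matched genes the first was present in 7 of 17 type I genes (41.2%) and 12 of 22 interferon-γ genes (54.5%), and the second in 3 and 9 of them. The first was also present in Gbp2 (log2 ratio -0.10) and Cxcl10 (-0.22), which were not called. The stretches of 30 bases run 5′ to 3′ on the gene's strand (RefSeq, GRCm38.p6), with the motif letters in capitals, where neighbouring and overlapping matches run together.
Isg15 (chr4:156200871-156200900, minus): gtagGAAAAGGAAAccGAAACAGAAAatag
Ifit3 (chr19:34583397-34583426, plus): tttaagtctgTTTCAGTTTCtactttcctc
Gbp2b (chr3:142594700-142594729, plus): gtacttctaaTTTCACTTTCttctttatca
Irf1 (chr11:53769914-53769943, plus): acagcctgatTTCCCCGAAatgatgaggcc

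Antigen presentation genes of monocytes and macrophages were also lower or within 2-fold. Of 19 MHC class I genes 5 were called lower and 0 higher, with a median log2 ratio of -0.67. The classical gene H2-K1 was 2076 and 1202 CPM, a difference under 2-fold, whereas the non-classical H2-Q7 fell from 285 to 64.4 CPM and H2-Q6 from 73.7 to 10.2 CPM. These H2-Q genes are near-identical copies of each other, so the division of their reads is uncertain. Of 12 MHC class II genes 2 were called lower, and H2-Aa was 6849 and 4246 CPM and Cd74 18595 and 11432 CPM. Ly6c2, a marker of inflammatory monocytes, fell from 3285 to 1089 CPM and Ly6a, an interferon-inducible surface protein, from 2564 to 438 CPM, while Ccr2, the receptor that brings monocytes from blood, was 1011 and 1015 CPM. Bst2, the interferon-induced tetherin, was 810 and 289 CPM and Siglec1, a macrophage lectin that interferon induces, 19.7 and 2.00 CPM. Gzmb and Ccl5, which were abundant in CD8 T cells, were 22.5 and 2.50 CPM and 259 and 121 CPM in this gate. Whether these UMIs came from T cells, and the part of T cell transcripts in the other values, was not tested.

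Lists of alternative activation and of lipid-associated macrophages held more genes called higher than lower in the knockout monocytes and macrophages. Of 19 alternative-activation genes 10 were called higher and 1 lower, and of 19 lipid-associated genes 10 were called higher and 0 lower; both medians were 1.05 on the log2 scale. Arg1, the arginine-consuming enzyme of suppressive macrophages, rose from 18.9 to 221 CPM, a ratio of 11.7 (8.81 to 15.9), in 4.31% and 12.7% of cells; 34 of its 48 wild-type UMIs stood in 1 cell, and without the richest cells the ratio was 37.9. Mmp12, macrophage elastase, had 0 UMIs in wild-type and 946 in knockout cells (52.5 CPM), at least 44.4-fold higher, and was found in 6.49% of knockout cells. Pf4, a chemokine of platelets and macrophages, was 5.12 and 205 CPM (ratio 40.1, or 62.1 without the richest cells, from 13 wild-type UMIs). Fabp5, a fatty acid carrier, was 97.3 and 680 CPM in 25.9% and 58.8% of cells. Ccl24, an eosinophil attractant, was 22.5 and 169 CPM (ratio 7.53, or 11.5 without the richest cells) and Hmox1, the haem-degrading enzyme, 146 and 689 CPM. Igf1, a growth factor, had no UMI in wild-type and 18.4 CPM in knockout. It was 15.5-fold higher against the same floor, with an interval that began at 12.6. Retnla, an alternative-activation gene, went the other way, from 281 to 4.44 CPM, a ratio of 0.0158 that was 0.0154 without the richest cells. Only 8 wild-type and 5 knockout cells had a Retnla UMI, and 385 of 714 wild-type UMIs came from 1 cell.

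Lysosomal and lipid genes differed in the size of their change. Gpnmb, a lysosomal glycoprotein, was 3.55 and 34.1 CPM, Trem2, a lipid receptor, 46.5 and 133 CPM, and Spp1, osteopontin, 256 and 825 CPM. Cd9 was 28.8 and 192 CPM, Cd63 41.0 and 269 CPM and the lysosomal protease Ctsd 313 and 762 CPM. Apoe was 1368 and 2235 CPM, a ratio of 1.63 and so short of 2-fold. Thrombospondin (Thbs1) had a ratio of 3.92 and fibronectin (Fn1), a matrix protein, was 186 and 387 CPM, while F10, the coagulation factor that macrophages also make, was 63.4 and 284 CPM. Mrc1, the mannose receptor, was 66.6 and 51.7 CPM, so not every gene of the alternative list was higher. The 8 melanoma genes summed to 15.4 CPM in wild-type and 79.7 CPM in knockout cells of this gate, with Tyr, Sox10 and Gpr143 at 0 in wild-type and Gpr143 at 0 in knockout, and 609 of the 661 knockout UMIs of Dct, a pigment enzyme, stood in 1 cell. Whether engulfed or free tumour RNA bears on the lipid and lysosomal genes was not tested.

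**Figure D4:**
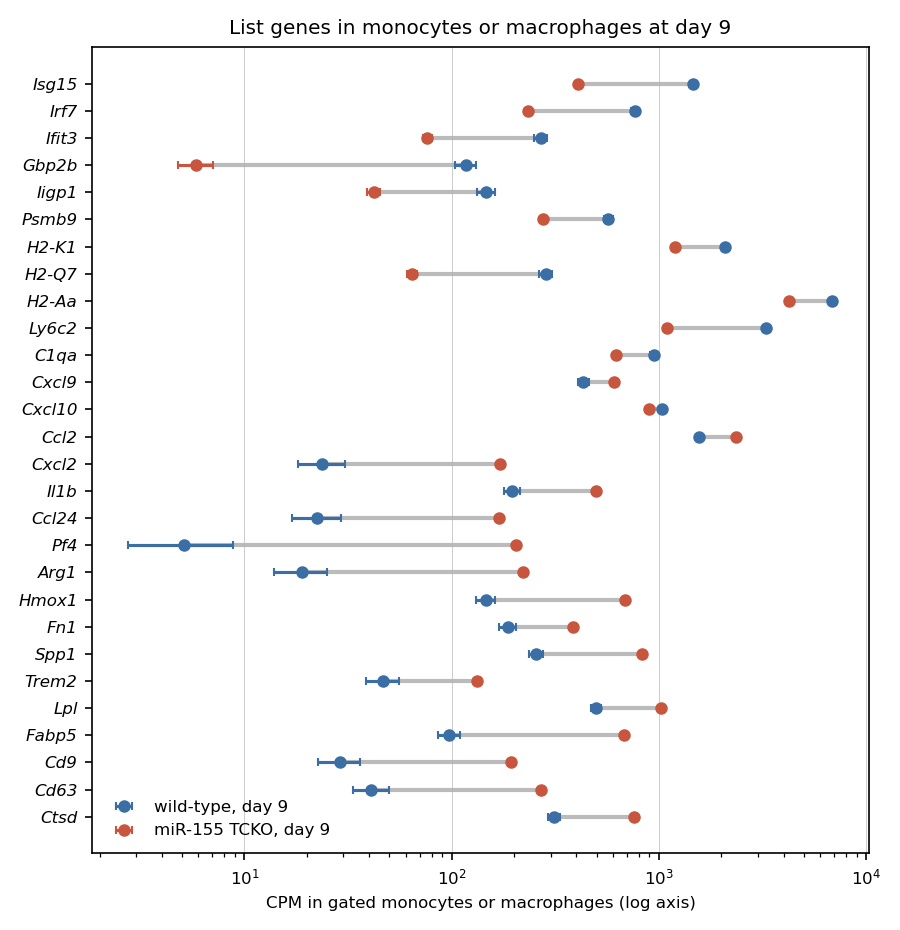
CPM of selected genes (log axis) in the monocytes and macrophages of the wild-type and knockout libraries at day 9, with exact 95% Poisson intervals; the genes were chosen after their values had been seen. Arg1 is at 18.9 and 221 CPM and Isg15 at 1457 and 409 CPM.

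Inflammatory cytokines and chemokines rose in part. Of 15 inflammatory genes 5 were called higher and 0 lower, and of 18 chemokine genes 6 and 1. Il1b was 195 and 496 CPM, a ratio of 2.54, Cxcl2, a neutrophil attractant, 23.6 and 171 CPM, and Ccl3 110 and 235 CPM. Cxcl3, a relative of Cxcl2, had no UMI in wild-type and 26.9 CPM in knockout, at least 22.8-fold higher. Ccl2, the main attractant of monocytes, was 1566 and 2344 CPM, and Ccl5 was the chemokine called lower. The complement component C1qa was 945 and 617 CPM and Cfb, of the alternative pathway, had a ratio of 0.359.

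States of the monocytes and macrophages differed less than those of the CD8 T cells. Classical monocytes, gated on Ly6c2, Plac8, Ccr2 and Vcan with few C1qa UMIs, were 61.6% in wild-type and 68.9% in knockout. Non-classical monocytes were 8.63% and 13.5%, lipid-associated macrophages 1.96% and 7.72% (5 and 138 cells), and Mrc1 macrophages 10.2% and 1.68% (26 and 30 cells). Thinned to 2000 UMIs, the classical share was 71.4% in wild-type and 69.7% in knockout, so the direction of its difference was not kept. The thinned lipid-associated share was 0.595% and 6.63%, and the thinned Mrc1 share of wild-type cells 4.76%. Macrophages assigned by Arg1 were 0 of 255 wild-type cells and 12 knockout cells (0.672%).

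Within classical monocytes alone the same lists moved. Of 8257 genes tested there, 362 (4.38%) were called higher and 238 (2.88%) lower, with a median log2 ratio of 0.03. The type I interferon list had 15 of 22 genes called lower, with Isg15 at 1386 and 497 CPM and Irf7 at 805 and 279 CPM. The median log2 ratio of this list was -1.28 in classical monocytes, -1.15 in non-classical monocytes and -1.79 in Cxcl9 macrophages. Non-classical monocytes were only 22 wild-type and 241 knockout cells, with 19 genes of the list tested. Cxcl9 macrophages were only 15 and 60 cells, with 12 genes tested. Both wild-type numbers lie below the cell minimum set for lineages, so these medians rest on few cells. In classical monocytes the alternative-activation list had 7 of 14 called higher and the lipid-associated list 6 of 14. The 5 wild-type lipid-associated macrophages were too few for a comparison of that state. The reported targets of miR-155, which these cells still carry by label, had 0 of 22 genes called higher and 1 lower in all monocytes and macrophages.

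**Figure D5:**
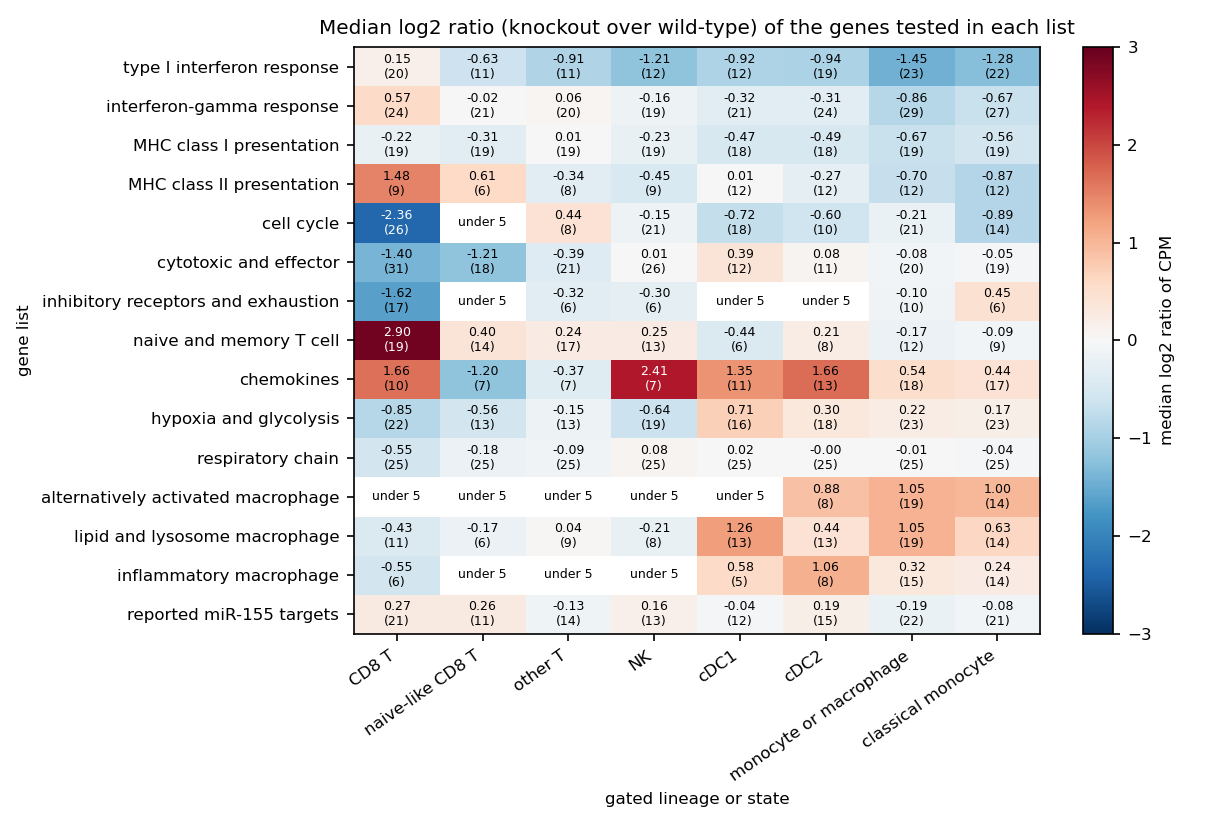
Median log2 ratio of knockout over wild-type CPM for gene lists (rows) in 6 lineages, naive-like CD8 T cells and classical monocytes (columns), with the number of genes tested in parentheses. Lists with under 5 tested genes are uncoloured and marked as under 5. The naive and memory list is at 2.90 and the cell-cycle list at -2.36 in CD8 T cells, and the type I interferon list is at -1.45 in monocytes and macrophages.

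The type I interferon list had a negative median in 5 of the 6 lineages compared, from -0.91 in T cells without a CD8 or CD4 call to -1.45 in monocytes and macrophages, and 0.15 in CD8 T cells. Within CD8 T cells the median was -0.63 in the naive-like and -1.01 in the PD-1 positive state, so the value over all CD8 T cells was outside the range of those states; 20, 11 and 14 genes of the list were tested in all, naive-like and PD-1 positive CD8 T cells. Ifi27l2a, an interferon-induced gene, was called lower in all 6 lineages, with log2 ratios from -2.54 to -1.06; over whole libraries at day 12 it was 2333 and 2430 CPM. The other genes called in the same direction in all 6 lineages were Rpl29, Gm10709 and Gm10076. Rpl29, a ribosomal protein gene (chr9:106429454-106431568), was 2389 CPM in wild-type and 147 CPM in knockout CD8 T cells, and the processed pseudogene Gm10709 (chr9:7751725-7752204) was 28.0 and 1275 CPM. Over whole libraries at day 12 Rpl29 was 1651 and 168 CPM and Gm10709 12.1 and 973 CPM, so the same exchange was present at both times. Whether the pools differ in strain background was not tested. The sequence of a processed pseudogene is near-identical to its parent, and the division of reads between these genes is uncertain. Gm10076, annotated as a long noncoding RNA, was also called lower in all 6 lineages, with log2 ratios from -1.20 to -1.03, while over whole libraries at day 12 it was 128 and 194 CPM.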

How the data were processed

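Deposited files were gene-by-barcode matrices of raw UMI counts; the submitters' processing notes name Cell Ranger 2.0.2 and mm10, and other filters are not given in the sources used here. Barcodes with at least 200 genes and at most 10% mitochondrial UMIs were kept. Lineages were gated on marker UMIs (at least 2 to 4, by lineage), barcodes passing a lymphoid and a myeloid gate were set aside as mixed, and no doublet caller was run. UMI counts were summed per lineage with at least 50 cells in each library and divided by the lineage total to give CPM. States within a lineage were summed in the same way without that minimum. With 1 pooled library per group no test was run. Genes with at least 50 UMIs over the pair were called at 2-fold; gate genes were left out, and a few genes are not reported here. A side with 0 UMIs was set at 3 UMIs. Intervals are exact 95% intervals (Clopper-Pearson for shares, Poisson for levels, conditional binomial for ratios) and cover counting error alone.

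Named genes were those whose ratio interval had the bound nearest 1 farthest from it (10 in each direction in CD8 T cells and in monocytes and macrophages, 6 elsewhere), up to 4 genes per list by level, size of difference or known role, Mir155hg, and genes past 2-fold the same way in every lineage. Members and the 32 gene lists were chosen with earlier results of these data known; the look at PD-1 positive cells, the promoter motifs, the plotted macrophage genes and further genes given as examples were chosen after their values were seen. Thinning to 2000 UMIs left out no barcode. Promoters and the mature miRNA came from RefSeq tables (GRCm38.p6), and 3′ UTRs from the GENCODE annotation. Alternatives were thinning, stricter gates and filters, TMM (edgeR 4.0.16 in R 4.3.3) or median-of-ratios scaling, equal weight per cell, and lower UMI minimums; scripts (Python 3.11.15, numpy 2.4.6, scipy 1.17.1, pandas 2.3.3, matplotlib 3.10.9) were tested on simulated data.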

Additional observations from a re-analysis of the deposited data

How the results depend on the processing

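Limits: a single pooled library stands for each group, counting intervals hold no variation between mice, and UMI gates find fewer positive cells at lower depth. Values stayed within their counting interval in 55 of 60 recomputed share ratios and 459 of 550 named genes. List medians stayed within the median half-width of their genes' intervals in 148 of 171 cases, and gene counts within 1.5-fold in 70 of 100. A share ratio or list median near no change could cross it within these limits. Of 21 state shares recomputed after thinning, 7 stayed within their interval and 14 moved. No paired analysis was possible because each group has 1 library and no replicate numbers. Counting mixed barcodes with their myeloid gate, leaving out each gene's richest cell and leaving out dendritic cells with monocyte or macrophage UMIs were chosen after seeing the data.

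Thinning to 2000 UMIs gave share ratios of 0.188 for CD8 T cells, 0.876 for T cells without a CD8 or CD4 call (reversed from 1.60) and 0.210 for cDC1. With mixed barcodes counted as myeloid the ratios were 2.15 for pDC and 0.200 for cDC1. Thinned state shares in percent were 16.6 cycling, 8.22 naive-like and 33.6 remaining in wild-type CD8 T cells, and 53.4 naive-like and 33.9 remaining in knockout. In wild-type monocytes and macrophages they were 1.19 non-classical, 71.4 classical, 4.76 Mrc1 and 16.7 remaining; in knockout they were 2.30 non-classical, 0.354 resident-type, 1.06 Cxcl9, 1.41 Arg1 and 17.1 remaining.

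With equal weight per cell the log2 medians in CD8 T cells were -3.12 for cell cycle, -2.06 for inhibitory receptors, 2.28 for naive and memory genes, 1.45 for chemokines and 0.75 for MHC class II. In NK cells 59 genes were higher and the chemokine median was 1.26. In monocytes and macrophages the medians were -1.16 for type I interferon, -0.71 for interferon-γ, -0.77 for MHC class II, 0.82 for lipid-associated and -0.84 for complement genes. Gates raised by 1 UMI gave -1.26 for inhibitory receptors and 0.99 for MHC class II in CD8 T cells, 74 genes lower in T cells without a CD8 or CD4 call, an NK chemokine median of 0.99, 83 genes higher in cDC1 and a cDC2 chemokine median of 2.18.

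Without each gene's richest cell the CD8 T cell medians were -2.75 for cell cycle, -1.84 for cytotoxic genes and 0.98 for MHC class II. T cells without a CD8 or CD4 call then had 136 genes higher and 23 lower, NK cells a chemokine median of 1.23, cDC2 311 genes higher and a chemokine median of 0.94, and monocytes and macrophages an inflammatory median of 0.70. Without cells carrying 3 monocyte or macrophage UMIs, cDC1 had 38 genes higher and a lipid-associated median of -0.062 (reversed from 1.26). The Lpl log2 ratio was then -1.75 (reversed), from at most 10 wild-type UMIs. In the same setting cDC2 had 120 genes higher and a chemokine median of 1.01.

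With a minimum of 20 UMIs, and then with none, the genes called higher were 617 and 1548 in CD8 T cells, 352 and 791 in T cells without a CD8 or CD4 call, 165 and 748 in NK cells, 324 and 1008 in cDC1, 472 and 830 in cDC2, and 626 and 678 in monocytes and macrophages. Genes called lower were 186 and 967 in T cells without a CD8 or CD4 call, 285 and 845 in NK cells, 408 and 1082 in cDC1, 289 and 1150 in cDC2, and 456 and 1261 in monocytes and macrophages. These settings test more genes with few UMIs. The cause of the other shifts was not tested.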
